A study of Mus musculus with 56 samples.

Results

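Transcripts of 7 cholesterol synthesis genes were examined in mouse liver: Srebf2, Hmgcs1, Fdps, Fdft1, Sqle, Lss and Dhcr7. They were picked by symbol from the 21888 symbols of the RNA-seq table, with no threshold on their values. All 7 have a row, and 6 reached the mean of 1 FPKM that a test required. FPKM, the unit of that table, divides a gene's sequenced fragments by transcript length and by the size of the library, so levels can be compared between genes. The 14 libraries are poly-A RNA of 1 liver each, all of strain background 129Sv/J. They comprise 3 uninjected mice with a floxed miR-122 gene (day 0), 3 floxed mice each at 21 and 45 days after an intravenous recombinant adeno-associated virus carrying Cre (rAAV-Cre), 1 floxed mouse each at 100 and 200 days, and 3 miR-122 knockout mice. In the injected floxed mice the vector is of serotype 8, which reaches hepatocytes, with Cre behind the Ef1a promoter, which is not specific to hepatocytes. The labels name no vector or time point for the knockout mice, so the route of loss, its duration and the vector cannot be told apart between them and the injected mice. The day 0 livers are the only uninjected floxed controls analysed here, and the labels give no age.

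Hepatocytes make cholesterol from acetyl-CoA in a long series of steps through mevalonate, farnesyl diphosphate, squalene and lanosterol. When sterols in the endoplasmic reticulum run low, SREBP-2, the product of Srebf2, is carried by SCAP to the Golgi, cleaved there, and enters the nucleus, where it switches on most enzymes of the pathway. INSIG proteins hold the complex back when sterols are plentiful. miR-122 is the most abundant microRNA of hepatocytes, and blocking it lowers serum cholesterol in animals.

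Promoter sequence shows the element through which SREBP-2 acts and was therefore examined first. RefSeq promoters (GRCm38.p6, not the build of the FPKM table) were present for 4 of the 7 genes (Srebf2, Hmgcs1, Lss and Dhcr7), in 6 entries, of which the 250 bases before the start were searched on both strands. The sterol regulatory element was searched as TCACNCCA, letters chosen after these sequences had been seen. It occurred in the promoters of Hmgcs1 and Srebf2, and in 3.67% of 32851 mouse promoters of the same length. In both genes the letters read TCACCCCA on the gene's strand, the first base lying 137 bases before the Hmgcs1 start and 162 bases before the Srebf2 start. The 2 sequences are given because they carry this element, which is in capitals.
Hmgcs1, chr13:119690101-119690350, + strand: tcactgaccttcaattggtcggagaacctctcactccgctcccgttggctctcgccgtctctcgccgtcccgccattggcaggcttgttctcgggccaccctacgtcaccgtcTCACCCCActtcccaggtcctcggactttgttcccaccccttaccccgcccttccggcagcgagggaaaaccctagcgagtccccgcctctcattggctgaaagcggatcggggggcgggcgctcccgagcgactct
Srebf2, chr15:82147019-82147268, + strand: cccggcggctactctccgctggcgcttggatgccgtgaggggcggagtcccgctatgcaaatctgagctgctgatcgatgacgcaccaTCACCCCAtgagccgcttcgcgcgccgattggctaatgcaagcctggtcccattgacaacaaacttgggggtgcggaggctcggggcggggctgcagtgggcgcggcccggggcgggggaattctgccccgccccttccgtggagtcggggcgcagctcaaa
The entries of Lss and Dhcr7, and those of 12 other enzymes of the pathway, did not hold these letters in this window. CCAAT, the sequence bound by the partner factor NF-Y, was found on either strand in at least 1 entry of each of the 4 genes. Not every Dhcr7 entry held it. Counted per entry, CCAAT was in 33.8% of all promoters, and most of the 12 other enzymes had it too.

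Values of the whole data set that touch these genes are as follows. The miR-122 share of microRNA reads, from small RNA libraries with the same labels, was 59.2% to 73.3% at day 0, 8.22% to 13.2% at day 21, 0.383% to 1.23% at day 45, 4.46% at day 100 and 19.1% at day 200. No small RNA library of the knockout was analysed here. Effective depth was read from the smallest steps of the quartile-normalised FPKM values, relative to the first day 0 library. It was 0.655 to 1.01 in the floxed livers and 0.432 to 0.504 in the knockouts. This value includes the normalisation and need not equal the number of reads sequenced. The paper calls sequencing depth relatively uniform. Albumin, the defining hepatocyte transcript, was listed at 0 in all 14 libraries and transferrin in 11 of 14, so a 0 in this table can be a failed estimate. Without these 2, the other 6 hepatocyte markers were abundant and summed to 26677 to 29324 FPKM at day 0, 25202 to 26272 at day 21, 20195 to 26619 at day 45, 14279 to 23048 at days 100 and 200, and 23282 to 30247 in the knockout. Knockout mice A and B correlated at 0.986 with each other over all tested genes and at 0.881 and 0.895 with knockout mouse C, which was at 0.927 to 0.955 with the floxed livers.

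4 libraries stood apart by transcripts of the sex chromosomes. Mouse B at day 0, mouse C at day 21, mouse C at day 45 and mouse C of the knockout had transcripts of the Y-linked genes Ddx3y, Eif2s3y, Kdm5d and Uty, whose sum was 51.1 to 66.8 FPKM. In the same 4 libraries Xist, the RNA made by the silent X chromosome of female cells, was 0.023 to 0.133 FPKM. The other 10 libraries, days 100 and 200 included, had 0 to 0.061 FPKM of the Y-linked genes and 12.6 to 71.6 FPKM of Xist. The labels give no sex. Each group of 3 thus held 1 such library and days 100 and 200 held none. Every comparison of the 6 measurable genes is therefore also given from a fit with a term for Y-linked transcripts and from a fit of the 10 libraries without them, both added after the data had been seen. 2 of the day 0 livers also differed in clock genes, likewise noticed afterwards. Dbp was 5.99 FPKM in mouse B and 2.60 in mouse C against 23.6 to 82.6 in the other 12 livers, and Arntl was 6.36 and 7.64 against 0.812 to 3.83. The part of this difference in the levels below was not tested.

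Srebf2, which encodes SREBP-2 (chr15:81977698-82035390, mm9), had the lowest level of the 6 measurable genes in 13 of the 14 livers. In mice A, B and C it was 19.1, 10.1 and 18.2 FPKM at day 0, 18.0, 13.0 and 8.71 at day 21, and 18.8, 18.0 and 10.1 at day 45. It was 22.6 FPKM at day 100, 20.0 at day 200, and 19.5, 25.8 and 10.1 in the knockouts. Both late livers lay above all day 0 livers, as was the case for 52.9% of all tested genes, and the other groups overlapped with day 0. The low value of each group of 3 came from the library with Y-linked transcripts, and the other 10 libraries spanned 13.0 to 25.8 FPKM. Its log2 fold change from day 0, on the log2(FPKM + 1) scale used throughout, came to −0.24 ± 0.36 (SE) for day 21, −0.014 ± 0.36 for day 45, 0.46 ± 0.40 for days 100 and 200, and 0.16 ± 0.36 for the knockout.

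Hmgcs1, which makes HMG-CoA from acetyl-CoA units early in the pathway, could not be assessed. Its 2 rows lie on unplaced sequence of chromosome 13 in mm9 and are both listed at 0 in all 14 libraries. Such a listing in every library was found for 71.0% of the 224 symbols that have several rows, against 18.3% of the 21664 symbols with 1 row. A value of 0 therefore says nothing here about the transcript.

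Fdps, farnesyl diphosphate synthase (chr3:88897509-88905867, mm9), makes the last intermediate shared with the isoprenoid branches. It had the lowest day 45 mean relative to day 0 among the 6 genes. In mice A, B and C it was 101.6, 38.3 and 47.4 FPKM at day 0, 57.8, 29.7 and 22.1 at day 21, and 40.5, 18.3 and 28.4 at day 45. Both late livers were low and alike, at 34.9 and 34.7 FPKM, below all 3 day 0 livers, a position shared by 11.6% of all tested genes. Knockout mice A and B were at 74.2 and 80.9 FPKM and mouse C at 22.8, so this group spanned a 3.54-fold range. The day 45 mean was 29.1 ± 11.1 FPKM (SD, n = 3) against 62.4 ± 34.2 at day 0. For day 45 the log2 fold change came to −1.02, with a 95% interval of −2.12 to 0.086 and an adjusted p of 0.168. The corresponding changes were −0.74 for day 21, −0.70 for days 100 and 200, and −0.14 for the knockout. The knockout direction turned without the libraries with Y-linked transcripts. With 1 library left out the knockout value ran from −0.46 to 0.44.

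Fdft1, squalene synthase (chr14:63763987-63796630), commits farnesyl diphosphate to sterols. It had the highest level of the 6 genes in 10 of the 14 livers. In mice A, B and C it was 170.3, 52.5 and 108.5 FPKM at day 0, 151.3, 92.1 and 51.0 at day 21, and 110.4, 60.5 and 56.1 at day 45. It was 77.5 FPKM at day 100, 70.6 at day 200, and 73.8, 97.5 and 41.3 in the knockouts. Every group overlapped with day 0, which itself spanned a 3.24-fold range. Log2 fold changes from day 0 ran from −0.15 (day 21) through −0.42 (days 100 and 200) and −0.45 (day 45) to −0.56 (knockout), each with a 95% interval that included 0.

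Sqle, squalene epoxidase (chr15:59146646-59162748), adds the oxygen that closes into the sterol hydroxyl. In mice A, B and C it was 115.8, 36.9 and 67.4 FPKM at day 0, 99.0, 69.5 and 39.1 at day 21, and 86.9, 51.2 and 27.1 at day 45. Days 100 and 200 gave 81.7 and 73.4 FPKM, and the knockouts 57.9, 80.4 and 46.2. Both late livers and all 3 knockouts fell inside the range of day 0. Relative to day 0, Sqle had log2 fold changes of −0.033 (day 21), −0.41 (day 45) and −0.14 (knockout). For days 100 and 200 the value was 0.22, but −0.16 after each library was scaled to its median ratio and −0.19 without the libraries with Y-linked transcripts.

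Lss, lanosterol synthase (chr10:75994371-76016679), folds squalene epoxide into the first sterol. In mice A, B and C it was 61.4, 25.1 and 38.4 FPKM at day 0, 51.2, 26.4 and 12.6 at day 21, and 43.8, 22.0 and 20.9 at day 45. It was 39.7 FPKM at day 100 and 31.7 at day 200. The knockouts were at 17.7, 28.6 and 14.5 FPKM, and 2 of them lay below every day 0 liver. Their mean of 20.3 ± 7.40 FPKM (SD, n = 3) compares with 41.6 ± 18.3 at day 0, a log2 fold change of −0.97 with a 95% interval of −1.98 to 0.046 and an adjusted p of 0.12. The changes at day 21, day 45 and days 100 and 200 were −0.58, −0.50 and −0.13.

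Dhcr7, 7-dehydrocholesterol reductase (chr7:151009071-151034315), carries out the last step to cholesterol. In mice A, B and C it was 89.4, 39.9 and 64.3 FPKM at day 0, 67.4, 38.9 and 27.1 at day 21, and 57.3, 37.1 and 24.5 at day 45. It was 55.4 FPKM at day 100, 45.1 at day 200, and 46.5, 54.3 and 28.7 in the knockouts. All groups overlapped with day 0. Its log2 fold changes were −0.55 (day 21), −0.70 (day 45), −0.29 (days 100 and 200) and −0.54 (knockout), with SE of 0.40 to 0.44.

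**Figure D1:**
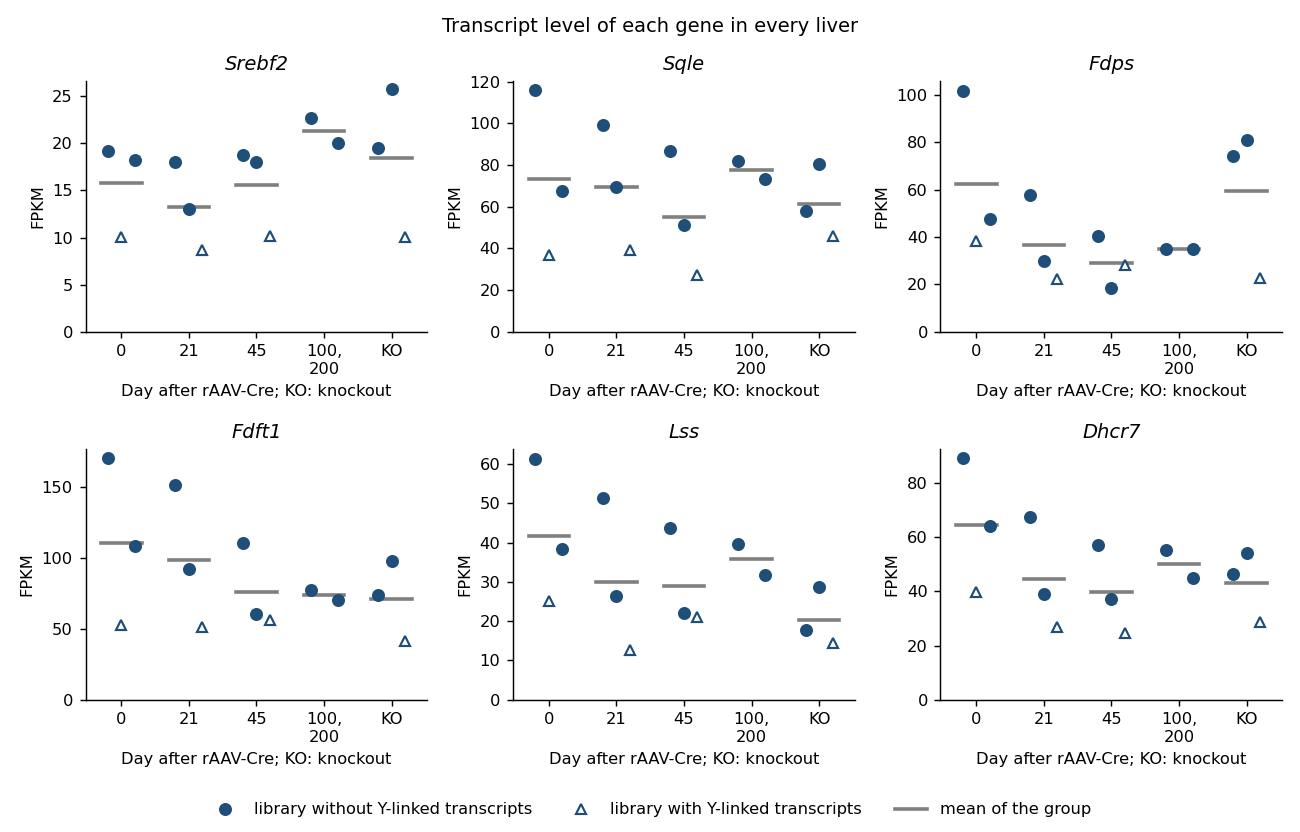
FPKM (vertical axis, from 0) of the 6 measurable genes in every liver by group (horizontal axis), with the group mean as a grey line and open triangles for the 4 libraries with Y-linked transcripts. Each triangle is the lowest point of its group except for Fdps at day 45, where mouse B was lower.

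The first question was whether loss of miR-122 moved these transcripts away from the uninjected livers. None of the 6 genes passed an adjusted p of 0.05 (limma, adjusted over all 11354 tested genes) at day 21, where 7.62% of all tested genes passed, or at day 45, where 26.7% did. None passed at days 100 and 200, where 31.6% of all genes passed, or in the knockout, where 33.8% did. No gene of the 6 had an unadjusted p under 0.05 in these comparisons or in the 3 described further on. At day 21 all 6 log2 fold changes were below 0, with a median of −0.40, beside 4776 of 11354 genes below 0 and a median of 0.061 over all genes. Day 45 also had all 6 below 0, with a median of −0.48 beside 3355 of 11354 genes and a median of 0.20. At days 100 and 200 it was 4 of 6, with a median of −0.21 beside 0.31, and in the knockout 5 of 6, with a median of −0.34 beside 0.016. These comparisons share the 3 day 0 livers. Leaving out single libraries turned the day 21 direction of Srebf2, Fdft1 and Sqle and the day 45 direction of Srebf2 and Sqle. Directions of single genes turned in the late and knockout comparisons too. Scaling each library to its median ratio moved the median of all genes at day 45 from 0.20 to −0.019, and the 6 genes then had changes of −1.27 (Fdps) to −0.26 (Srebf2), none of them called. In simulated data over all tested genes, 59% of genes changed by log2 1 and 94% of those changed by log2 2 at day 45 were called, but the 6 genes vary more within groups than most genes, and for them these shares were not computed.

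Within each of the groups of 3 the 6 genes spread widely and together. Their SD within groups was 0.50 to 0.72 on the log2 scale, which lies between the 90.3 and 97.0 percentiles of all tested genes, and its median was 0.66 against 0.27 for all genes. The order of the mice was A, C, B from highest to lowest for all 6 genes at day 0, and A, B, C for all 6 at day 21. It was B, A, C for all 6 in the knockout. These orders were found in 21.9%, 24.4% and 21.2% of all tested genes, and all 3 together in 1.38%. At day 45 the order was A, B, C for 5 of the 6 genes, with Fdps the exception, and for 9.49% of all genes. After group means were removed, the 15 pairs among the 6 genes had Pearson correlations of 0.71 to 0.96 over the 14 livers, with a median of 0.89. The points share libraries and their scaling, and no test was made.

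The libraries with Y-linked transcripts were the low ones. They were the lowest of their group in all 4 groups of 3 for 5 of the 6 genes. The same held for 6 of 15 other enzymes of the pathway and for 3.57% of all tested genes. Averaged over the 4 groups, the library with Y-linked transcripts was below the mean of the other 2 by 0.85 (Fdps) to 1.03 (Sqle) on the log2 scale. Srebf2 differed by −0.83, −0.75, −0.80 and −1.08 in the day 0, day 21, day 45 and knockout groups. Dhcr7 showed the most even gap, at −0.91, −0.90, −0.88 and −0.79. For Fdps the differences were −0.84, −0.88, 0.053 and −1.72. Over all tested genes the median of the averaged difference was −0.017. Within the 10 libraries without Y-linked transcripts the SD of Srebf2 within groups was 0.19 instead of 0.50, near the 52.9 percentile of all genes, and the other 5 genes had SD of 0.37 to 0.57 instead of 0.55 to 0.72. The median SD of all genes was 0.19 in these libraries. The 15 pairs had correlations of 0.54 to 0.98 within these 10 libraries, which rest on only 5 differences, 1 between the 2 livers of each group.

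**Figure D2:**
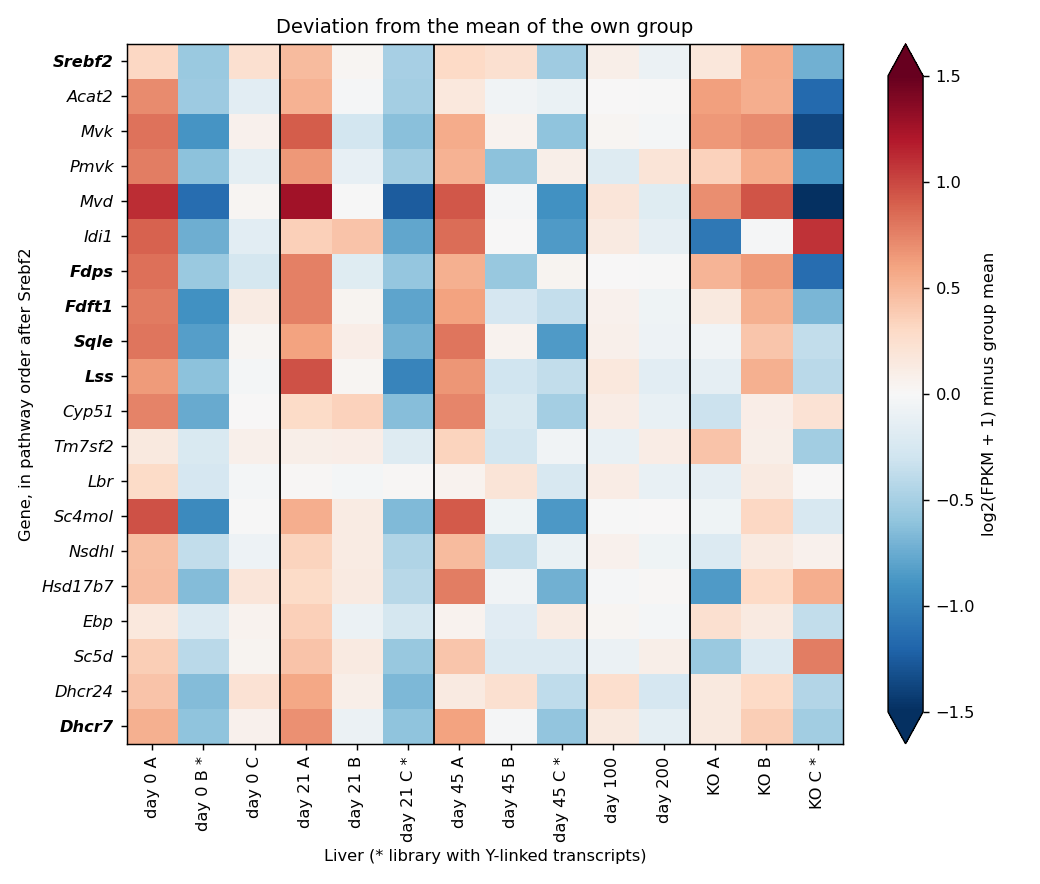
Deviation of log2(FPKM + 1) from the mean of the own group (colour, from −1.5 blue to 1.5 red) for the 6 genes (bold) and 14 other enzymes of the pathway (rows) in the 14 livers (columns, groups divided by lines, asterisks for libraries with Y-linked transcripts). Most rows share the high mouse A and the low starred library at days 0, 21 and 45, while in knockout mouse C Idi1, Sc5d and Hsd17b7 are red and Fdps and Mvd blue.

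Taking the Y-linked libraries into account narrowed the intervals and brought single genes past the threshold. With a term for Y-linked transcripts the median SE of the 6 genes fell from 0.47 to 0.27 in comparisons of groups of 3. In that fit Dhcr7 was lower at day 45 (log2 fold change −0.70, adjusted p 0.0347) and Lss lower in the knockout (−0.97, adjusted p 0.039), with 29.1% and 38.4% of all genes passing. Fdps at day 45 had an adjusted p of 0.0817 there. In the 10 libraries without Y-linked transcripts Fdps was lower at day 45, by −1.32 with a 95% interval of −2.30 to −0.33 and an adjusted p of 0.0489, and 29.4% of all genes passed. Lss was lower in the knockout in the same libraries, by −1.07 (adjusted p 0.0449, 57.4% of all genes passing), while Dhcr7 at day 45 was −0.71 with an adjusted p of 0.0999. The means behind the Fdps call were 29.4 FPKM at day 45 and 74.5 at day 0, of 2 livers each. At days 100 and 200 no gene passed in either fit, the smallest adjusted p being that of Fdft1 (0.0938 with the term and 0.0669 in the 10 libraries, where 31.4% and 39.6% of all genes passed). Neither fit called any of the 6 genes at day 21, where 8.93% and 5.65% of all genes passed. For Srebf2 at day 45 the 10 libraries gave a log2 fold change of −0.023 and a 95% interval of −0.44 to 0.39.

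**Figure D3:**
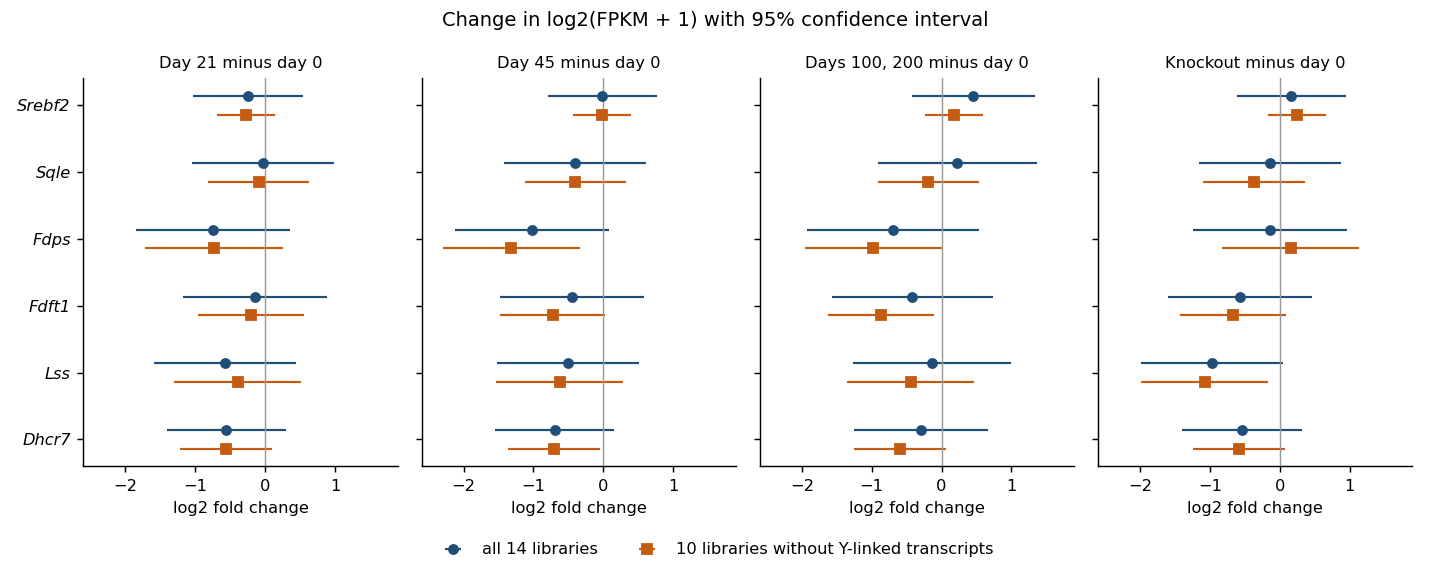
Log2 fold change relative to day 0 (horizontal axis, on the log2(FPKM + 1) scale) with its 95% confidence interval for the 6 genes in 4 comparisons, from all 14 libraries (circles) and from the 10 libraries without Y-linked transcripts (squares). All 14-library intervals include 0, and the squares whose interval does not are Fdps and Dhcr7 at day 45, Fdft1 at days 100 and 200 and Lss in the knockout.

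In whole liver fewer cells of a type and less RNA per cell cannot be told apart. At day 21 the markers higher were 1 of 5 macrophage (all 5 had an unadjusted p under 0.05), 3 of 3 lymphocyte, 2 of 4 endothelial, 1 of 5 stellate cell and fibroblast and 1 of 4 cholangiocyte markers. At day 45 all 5 macrophage markers, 3 of 3 lymphocyte, 5 of 5 stellate cell and fibroblast, 4 of 4 cholangiocyte, 3 of 3 proliferation and 1 of 4 endothelial markers tested were higher, and of the 6 hepatocyte markers other than transferrin none passed in limma (1 had an unadjusted p under 0.05). At days 100 and 200 the markers higher were 4 of 5, 3 of 3, 5 of 5, 4 of 4, 3 of 3 and 1 of 4 in the same order, and 1 of the 6 hepatocyte markers was lower. In the knockout 3 of 5 macrophage, 1 of 3 lymphocyte, 4 of 5 stellate cell and fibroblast and 4 of 4 cholangiocyte markers were higher. There none of the 3 proliferation markers passed in limma (1 had an unadjusted p under 0.05), 1 of 4 endothelial markers was lower and 1 of the 6 hepatocyte markers was lower. Of all 11354 tested genes, 704 were called higher at day 21, 2688 at day 45, 3227 at days 100 and 200 and 2191 in the knockout. Lower calls numbered 161, 339, 365 and 1642 in the same order. Summed macrophage markers were 160 to 271 FPKM at day 0, 538 to 607 at day 45 and 205 to 591 in the knockout. Summed cholangiocyte markers were 3.68 to 5.23, 22.2 to 71.1 and 18.3 to 62.6 FPKM. The part of cell composition in the differences of the 6 genes was not tested.

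The next comparison asked whether later livers differed from day 45, when miR-122 was lowest. From day 45 to days 100 and 200 the 6 genes had log2 fold changes of 0.036 (Fdft1) to 0.63 (Sqle), all above 0, beside 7813 of 11354 genes. Fdft1 was below 0 after median scaling and in both fits that account for Y-linked transcripts. None of the 6 passed, and 0.22% of all genes did (0.203% and 0.308% in the added fits, which called none of the 6 either). Srebf2 alone of the 6 did not overlap between these groups, being higher in both late livers, as were 23.7% of all genes. Between day 21 and day 45 the changes were −0.38 (Sqle) to 0.23 (Srebf2), and none passed where 0.273% of all genes did (0.572% and 0.555% in the added fits, again with none of the 6).

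The knockout was also set against day 45. None of the 6 genes differed between them past the threshold, while 9.44% of all genes did. Fdps had the widest difference, with a log2 fold change of 0.88 from day 45 to the knockout (95% interval −0.22 to 1.98, adjusted p 0.227). Knockout mice A and B, at 74.2 and 80.9 FPKM, were above all 3 day 45 livers, and knockout mouse C, at 22.8, was within them. Without knockout mouse C the difference was 1.45 (adjusted p 0.0175), and in the 10 libraries without Y-linked transcripts 1.47 (adjusted p 0.0205). In these fits 52.2% and 49.5% of all genes passed. With the Y-linked term the adjusted p was 0.132, and 16.5% of all genes passed.

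The balance among the 6 genes inside a liver was described by subtracting their mean log2(FPKM + 1) in that liver, which removes what all 6 share. Srebf2 was −1.62 ± 0.30 (SD, n = 3) relative to that mean at day 0 and −1.12 ± 0.34 at day 45. It was −1.03 and −1.02 at days 100 and 200 and −1.09 ± 0.069 in the knockout. In each of these groups all livers lay above the day 0 range of −1.96 to −1.41, as did 17.8%, 31.4% and 20.8% of all tested genes after the same subtraction. At day 45 mouse A, at −1.408, was barely above the highest day 0 liver, at −1.412. The day 21 livers, at −1.49 ± 0.22, overlapped with day 0. Lss had values of −0.32 ± 0.058 (day 0), −0.52 ± 0.27 (day 21), −0.31 ± 0.13 (day 45) and −0.93 ± 0.25 (knockout). The knockouts did not overlap with day 0, as was so for 0.493% of all genes in this direction, but 1 day 21 liver, at −0.81, lay within their range. Fdps, at 0.21 ± 0.25 at day 0, was −0.43 and −0.26 in the late livers, below the day 0 range, as were 1.7% of all genes, while its day 21, day 45 and knockout livers overlapped with day 0. Sqle was 0.42 ± 0.15 at day 0 and 0.77 ± 0.11 at day 21, without overlap, as were 5.99% of all genes. For Sqle the late livers were at 0.78 and 0.80, again above the day 0 range, as were 31.4% of all genes. Fdft1, at 1.00 ± 0.20 at day 0, was above that range at day 21 (1.23 ± 0.087) and below it in the late livers (0.70 and 0.75). Both gaps were narrow. The lowest day 21 liver was at 1.133 against a day 0 maximum of 1.127. The higher late liver was at 0.747 against a day 0 minimum of 0.772. These positions were shared by 5.99% and 1.7% of all genes. The values describe 6 genes that enter their own mean, whereas other genes do not enter it. The shares of all genes in this paragraph are therefore not a like measure for the 6, and no test was made.

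**Figure D4:**
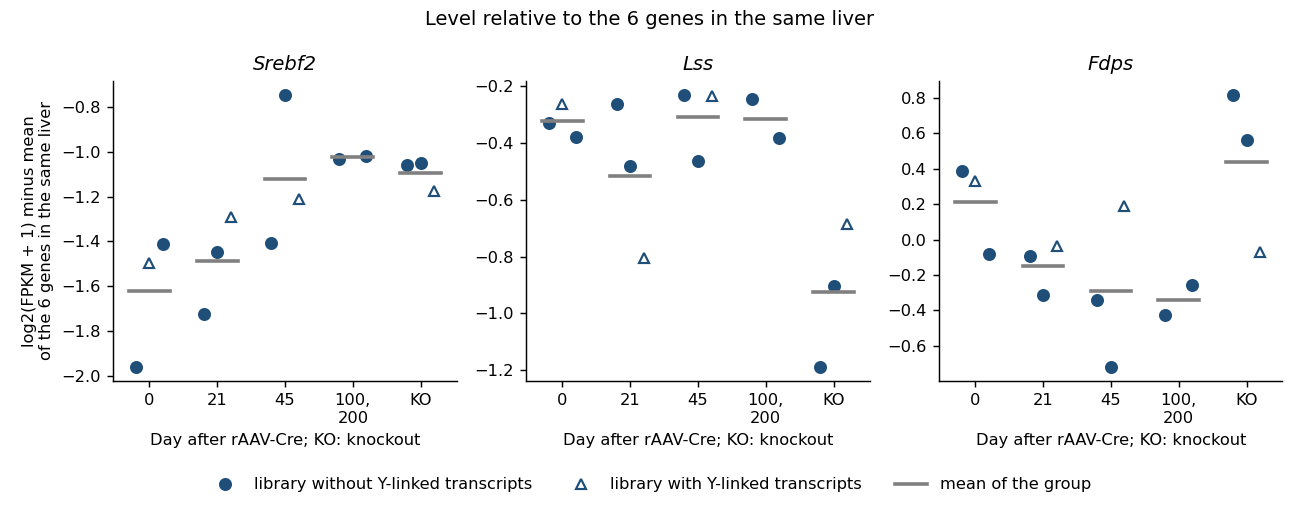
Level of Srebf2, Lss and Fdps relative to the mean of the 6 genes in the same liver (vertical axis, log2 units) by group (horizontal axis), with the group mean as a grey line and open triangles for libraries with Y-linked transcripts. The day 45, late and knockout livers lie above the day 0 range for Srebf2, and the knockouts lie below it for Lss.

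The other enzymes of the pathway give the setting. Of 15 tested, none passed at day 21 (2 had an unadjusted p under 0.05 in limma), 1 was lower at day 45, 2 were lower at days 100 and 200 and 5 were lower in the knockout, and none was higher in these comparisons. Lower calls made up 2.99%, 3.21% and 14.5% of all tested genes at day 45, at days 100 and 200 and in the knockout. The day 45 call was Ebp, the sterol isomerase, which fell by 0.74 on the log2 scale (adjusted p 0.018) from 249.5, 193.4 and 232.2 FPKM to 138.5, 118.3 and 145.8. At days 100 and 200 the calls were Ebp and the sterol reductase Tm7sf2. In the 10 libraries without Y-linked transcripts 5 of the 15 were lower at day 45 (Acat2, Ebp, Nsdhl, Pmvk and Sc5d), beside 4.74% of all genes called lower in that fit, and with the Y-linked term Ebp and Nsdhl were, beside 3.81%. At days 100 and 200 the added fits called Acat2, Ebp, Nsdhl and Tm7sf2 lower with the term (3.66% of all genes) and Sc5d besides in the 10 libraries (5.68%). In the knockout they called 7 and 6 lower (17% and 28.8%). Ebp at day 45 did not pass without day 0 mouse A, day 0 mouse C or day 45 mouse B, and without the day 100 or the day 200 liver none of the 15 passed in the late comparison. Median log2 fold changes of the 15 were −0.46, −0.64, −0.48 and −0.74 in the 4 comparisons with day 0.

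In the knockout the lower calls were Idi1, Cyp51, Nsdhl, Hsd17b7 and Sc5d, named after their values were seen. Sc5d alone passed with only the 2 groups in the fit and without day 0 mouse A, day 0 mouse C or knockout mouse A. With the replicate block 3 passed (Hsd17b7, Nsdhl and Sc5d), and without knockout mouse B 2 did (Hsd17b7 and Sc5d). Sc5d, lathosterol oxidase just ahead of Dhcr7, was 533.2, 310.4 and 424.1 FPKM at day 0 and 58.8, 75.2 and 148.9 in the knockout, a log2 fold change of −2.23 (adjusted p 0.00107). Hsd17b7, a keto-reductase of sterol demethylation, was 46.5, 21.0 and 38.1 FPKM at day 0 and 5.78, 14.0 and 16.8 in the knockout, without overlap, as were 13.3% of all genes. Of these calls Sc5d, Hsd17b7, Idi1 and Cyp51 were highest in knockout mouse C, the animal in which all 6 genes above were lowest. Nsdhl was highest in knockout mouse B.

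**Figure D5:**
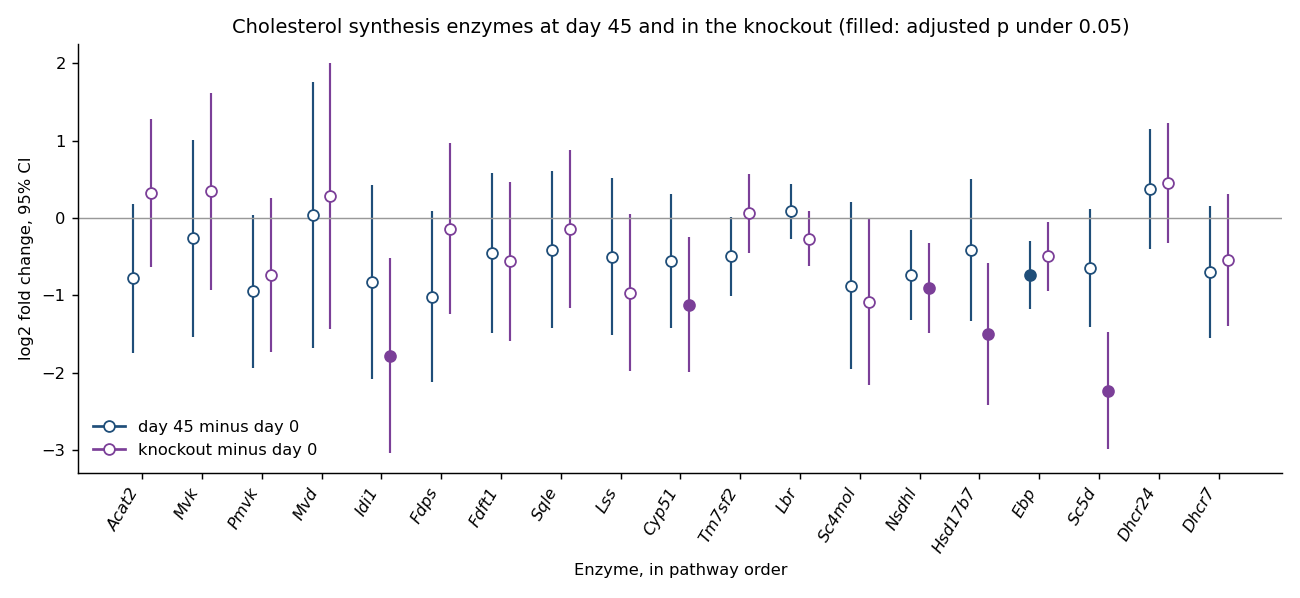
Log2 fold change relative to day 0 with its 95% confidence interval (vertical axis) for measurable enzymes in pathway order (horizontal axis) at day 45 (blue) and in the knockout (purple), filled where the adjusted p is under 0.05. Only Ebp is filled at day 45, and Idi1, Cyp51, Nsdhl, Hsd17b7 and Sc5d are filled in the knockout.

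Among 10 regulators of the pathway none passed in limma in the 4 comparisons with day 0, and 1 had an unadjusted p under 0.05 in each of them except the knockout, where none had. That gene, named after its values were seen, was Scap, the escort of SREBP-2. It was 36.7, 34.6 and 43.6 FPKM at day 0 and 27.0, 27.1 and 22.0 at day 45, a log2 fold change of −0.58 with an adjusted p of 0.052, which became 0.00803 with the Y-linked term and 0.019 in the 10 libraries. Scap was also called lower at day 21 with the term and at days 100 and 200 in both added fits, and Mbtps2 was called higher at days 100 and 200 in the 10 libraries. In the knockout the 10 libraries called 1 regulator higher and 3 lower (Insig1, Insig2, Mbtps2 and Nr1h2, with 57.4% of all genes passing). With all 14 libraries Insig1, a sterol-sensing brake and itself a target of SREBP, had a log2 fold change of −0.40 at day 45 (adjusted p 0.477) and −0.69 in the knockout (adjusted p 0.146). For Srebf1, the sister factor for fatty acid synthesis, the values were −0.45 (adjusted p 0.58) and −0.82 (adjusted p 0.207). Of 15 genes of cholesterol uptake, storage and export, 3 were higher at day 45 and none lower, beside 23.7% of all genes called higher. They were Soat1, which esterifies cholesterol and is abundant in macrophages (0.99, 0.81 and 1.2 FPKM at day 0 and 2.92, 3.70 and 2.44 at day 45), the exporter Abcg1 (log2 fold change 0.98) and Mylip, a ubiquitin ligase (0.53). With the Y-linked term Lcat was lower as well, and in the 10 libraries Mylip did not pass while Lcat, Soat2 and Tmem97 were lower, all named after their values were seen. With all 14 libraries Soat1 was higher at day 21, where 7.62% of all genes passed. At days 100 and 200 Soat1, Abcg1 and Mylip were higher and Lcat lower, where 31.6% of all genes passed. In the knockout Scarb1 was higher, and Abca1 (log2 fold change −1.33) and Stard4 (−1.14) were lower. There 33.8% of all genes passed, and 14.5% were called lower. Scarb1, Abca1 and Stard4 were again named afterwards. Of 7 genes of the isoprenoid branches that use the product of Fdps, Ggps1 and Fntb were higher at day 45, by 0.92 and 0.68. There 23.7% of all genes were called higher. Both were also higher at days 100 and 200, as were 3227 of all 11354 genes. In the knockout Fntb was higher (0.997), as were 2191 of all genes, and Ggps1 was near 0 (−0.010).

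The livers ordered several of these genes as they ordered the 6. After group means were removed, the correlation with the mean of the 6 was 0.98 for Mvd and 0.88 for Insig1 and Srebf1, but 0.35 for Sc5d, −0.62 for Insig2 and −0.70 for Ggps1. A value above 0.8 was reached by 7 of the 15 other enzymes and by 1.05% of all 11354 genes. Outside the lists, the 5 genes whose level over the 14 libraries was most like the mean z score of the 6 were Sgsm1 (r = 0.92), Pdzk1 (0.91), 0610007P14Rik (0.88), Scly (0.88) and AB056442 (0.86). AB056442 was 0.13 to 0.564 FPKM in the 4 libraries with Y-linked transcripts and 2.62 to 16.4 in the other 10.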

How the data were processed

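Poly-A RNA of 14 mouse livers, 1 animal per library, was sequenced as paired reads. The authors aligned them with TopHat to mm9 and deposited FPKM from Cufflinks 2.2.1 with quartile normalisation. These hold no fragment numbers, so no count model or counting interval was used. Rows of 1 symbol were summed (22308 rows, 21888 symbols). The deposited small RNA values, RPM with 1 added by the authors, gave the miR-122 share.

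The 5 groups entered a single limma 3.58.1 model (R 4.3.3, eBayes with trend) of log2(FPKM + 1), which understates changes of low genes. Of all symbols, 11354 averaged 1 FPKM or more. Two-sided p-values were adjusted by Benjamini-Hochberg per comparison (threshold 0.05). The fit was tested on simulated data with 200 changed genes.

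The members and gene lists were chosen with earlier results of these data known. Named besides the 7 genes are, per list, up to 3 genes per direction past the threshold at day 45, plus Insig1 and Srebf1, and the 5 genes most like the members. Some listed genes are not reported here. Any other listed gene that is named was chosen after its values were seen, also where the text does not say so. Alternatives were a pseudocount of 0.1, no filter, median scaling, no trend, only the compared groups, a replicate block, days 100 and 200 apart, no knockouts and each library left out. Both fits for Y-linked transcripts were chosen after seeing the data. Replicate letters did not pair the livers. Figures were drawn with Python 3.11.15 and matplotlib 3.10.9.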

Additional observations from a re-analysis of the deposited data

Results flagged for a closer look

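With all 14 libraries none of the 6 tested genes differed between 2 time points after injection or between the knockout and day 45 in a test of that difference, while Fdps was higher in the knockout than at day 45 without knockout mouse C and in the 10 libraries without Y-linked transcripts. Among 47 other listed genes 2 differed between the knockout and day 45, beside 9.44% of all genes. That number was 5 with the Y-linked term (Acat2, Ggps1, Mbtps2, Sc5d and Scarb1, with 16.5% of all genes) and 23 in the 10 libraries (49.5%). Sc5d was lower in the knockout than at day 45 by −1.59 on the log2 scale (adjusted p 0.0212), with 58.8, 75.2 and 148.9 FPKM in the knockout and 351.9, 229.1 and 227.9 at day 45. Ggps1, which makes geranylgeranyl diphosphate from the product of Fdps, was lower in the knockout than at day 45 by −0.93 (adjusted p 0.0273), with 2.41, 2.69 and 5.80 FPKM in the knockout and 6.90, 7.38 and 7.97 at day 45. In both genes the knockout liver nearest to day 45 was mouse C, whose library has Y-linked transcripts. Both were lower in the knockout also in the 10 libraries without such transcripts, by −2.08 and −1.20.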

How the results depend on the processing

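The number of the 6 genes called was 0 in all 7 comparisons under another pseudocount, no filter, median scaling, no trend and the 2 groups alone. It was 0 also with the replicate block, with days 100 and 200 as separate terms and without the knockout libraries, in the comparisons where each could be fitted. It became 1 with a term for Y-linked transcripts at day 45 (Dhcr7) and in the knockout (Lss), and 1 without the 4 libraries at day 45 (Fdps), in the knockout (Lss) and from day 45 to the knockout (Fdps, higher). Leaving out 1 library gave 0 to 1 from day 45 to the knockout and 0 elsewhere.

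The other enzymes moved more. Their count at day 21 rose from 0 to 1 without the knockout libraries. At day 45 it rose from 1 to 2 with median scaling, without the knockouts and with the Y-linked term, and to 5 without the 4 libraries. At days 100 and 200 it rose from 2 to 4 with the term and 5 without the 4 libraries. In the knockout it fell from 5 to 3 with no filter, 1 with the 2 groups alone and 3 with the replicate block, and rose to 7 with the Y-linked term and 6 without the 4 libraries. Leaving out 1 library gave 0 to 2 at day 45, 0 to 3 at days 100 and 200, and 1 to 6 in the knockout. The cause of these moves was not tested.

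Directions of single genes turned as follows. Sqle at days 100 and 200 was −0.16 with median scaling, −0.12 with the Y-linked term and −0.19 without the 4 libraries. From day 45 to days 100 and 200 Fdft1 was −0.085, −0.31 and −0.14 in the same 3 settings. Median scaling gave −0.11 for Lss from day 21 to day 45 and 0.13 for Fdft1 from day 45 to the knockout, and leaving out the 4 libraries gave −0.23 and 0.053. Without them Fdps in the knockout was 0.16 relative to day 0. Where leaving out 1 library turned a direction, the range of the log2 fold change over the libraries left out is given. From day 0 to day 21 it was −0.52 to 0.0049 for Srebf2, −0.60 to 0.25 for Fdft1 and −0.45 to 0.37 for Sqle. From day 0 to day 45 it was −0.29 to 0.25 for Srebf2 and −0.82 to 0.012 for Sqle. From day 0 to days 100 and 200 it was −0.19 to 0.62 for Sqle and −0.44 to 0.19 for Lss. From day 0 to the knockout it was −0.11 to 0.52 for Srebf2, −0.46 to 0.44 for Fdps and −0.55 to 0.26 for Sqle. From day 21 to day 45 it was −0.019 to 0.50 for Srebf2, −0.57 to 0.10 for Fdps, −0.70 to 0.071 for Fdft1, −0.78 to 0.046 for Sqle, −0.42 to 0.55 for Lss and −0.45 to 0.20 for Dhcr7. From day 45 to days 100 and 200 it was −0.14 to 0.34 for Fdft1. From day 45 to the knockout it was −0.10 to 0.54 for Srebf2, −0.38 to 0.23 for Fdft1, −0.15 to 0.67 for Sqle and −0.14 to 0.45 for Dhcr7.

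Numbers of all genes called moved too. With the replicate block, which changed no call of the 6 genes, they were 470 instead of 865 at day 21, 1 instead of 31 from day 21 to day 45 and 447 instead of 1072 from day 45 to the knockout. Median scaling gave 11 from day 21 to day 45 and 416 from day 45 to the knockout. It also moved the share of higher calls, from 2688 of 3027 to 1813 of 2611 at day 45, from 3227 of 3592 to 1913 of 2925 at days 100 and 200, and from 137 of 1072 to 182 of 416 between day 45 and the knockout. FPKM give no depth per gene, and with 3 livers a group the intervals above are the limit on what could be seen.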
